A study of Mus musculus with 6 samples.

Results

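The enzymes and transporters of glycolysis, glycogen turnover and the pentose phosphate pathway were measured by RNA-seq in macrophages that were sorted out of the colon lamina propria of 8-week-old C57BL/6 mice. The 39 genes were chosen by symbol, whatever their level, from the 25124 gene rows of the deposited table: 27 belong to glycolysis with its glucose and lactate transporters, 5 to glycogen turnover and 7 to the pentose phosphate pathway. The 3 wild type libraries (replicates 1 to 3) came from mice without the transgene, and the 3 transgenic libraries (replicates 1 to 3) from mice with a macrophage-specific E4BP4 transgene. E4BP4, the product of Nfil3, is a leucine zipper factor that mostly represses transcription. The titles name E4BP4 in all 3, while the genotype field of transgenic replicates 2 and 3 ends in another digit. Both groups carry the same colitis: dextran sulfate sodium (DSS), which injures the colonic epithelium, at 2.0% in the drinking water for 7 days, then 7 days without it and collection on day 14. No group without colitis enters the comparison, and the promoter that drives the transgene is not given in the sources used here. Whether each library stands for a mouse of its own is not stated. The p-values therefore set the difference between groups only against the spread of these libraries within a group, which may be technical.

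Glycolysis splits glucose into pyruvate, and its irreversible steps are those of hexokinase, phosphofructokinase 1 and pyruvate kinase. The pentose phosphate pathway branches off after hexokinase to supply NADPH and ribose, and glycogen stores glucose for later use. Macrophages that are activated by microbial products or short of oxygen are known to raise glycolysis, with lactate as an end product, and the oxygen-sensitive factor HIF-1 is a well known activator of many of these genes.

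Levels are given as TPM, a transcript abundance scaled for exon length and library. Differences are log2 fold changes of TPM + 1, transgenic over wild type, with limma adjusted p over all 12633 genes that reached a mean of 1 TPM in a group. Library depth was 17.25 to 18.9 M reads, and 13.97 to 15.06 M of them lay in genes. The share in genes was 81.2% to 81.3% in wild type against 79.5% to 79.7% in transgenic libraries. Its bearing on the comparison was not tested. Nfil3 itself stood at 117, 120 and 119 TPM in wild type against 133, 134 and 141 TPM in transgenic libraries (log2 fold change 0.19 ± 0.029 SE, limma adjusted p = 0.00261). Whether reads of the transgene itself fall in that gene model is not given in the sources used here. The summed level of 12 macrophage markers was 19900 to 20100 TPM in wild type against 19200 to 19300 TPM in transgenic libraries, with 4 higher, 6 lower and none at 0.

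Most of the pathway was lower in transgenic macrophages. Of the 39 members 38 could be tested, the neuronal enolase gene Eno2 being too low, at 0.600 and 0.516 TPM. Of these 22 fell and 2 rose, while 13.2% of all tested genes fell and 8.71% rose. The median log2 fold change of the members was -0.23, against -0.01 over all genes. With upper-quartile scaling 20 members fell and 3 rose, and over all genes the split of 1100 higher and 1666 lower became 1425 and 1315. The wild type and transgenic libraries did not overlap for 25 members, as for 39.3% of all tested genes. Of the 22 members that fell, 15 fell by at least 1.25-fold and 5 by at least 1.5-fold, beside 6.1% and 2.68% of all genes. Abundant genes were called more often: 38.5% of the 826 genes of at least 100 TPM fell, and so did 10 of the 10 members at that level. In the same libraries the summed markers of neutrophils (1030 to 1060 against 434 to 489 TPM) and epithelium (1070 to 1080 against 600 to 607 TPM) were lower too, and their part in the fall of the members was not tested. The 18 members called lower under all 14 alternative analyses are named in the closing section.

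In glycolysis 15 of 26 tested members fell and 2 rose (median log2 fold change -0.31). In the glycogen group 3 of 5 fell and 0 rose (median -0.41), and in the pentose phosphate pathway 4 of 7 fell and 0 rose (median -0.13). The summed level of the glycolysis members was 2766, 2761 and 2748 TPM in wild type against 2021, 2040 and 2057 TPM in transgenic libraries, a ratio of means of 1.35. The same sum was 684, 684 and 687 TPM against 620, 610 and 587 TPM for the pentose phosphate pathway, a ratio of 1.13. For the glycogen group it was 80.9, 86.2 and 84.5 TPM against 65.8, 61.5 and 63.4 TPM, a ratio of 1.32. All 3 sums were lower in each transgenic library than in any wild type library. Of the net fall in the glycolysis sum 78% came from the 6 genes Pkm, Aldoa, Gapdh, Ldha, Eno1 and Tpi1. The difference in ratio between the arms was not tested. In these bulk libraries fewer cells of a type and less RNA per cell cannot be told apart.

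**Figure D1:**
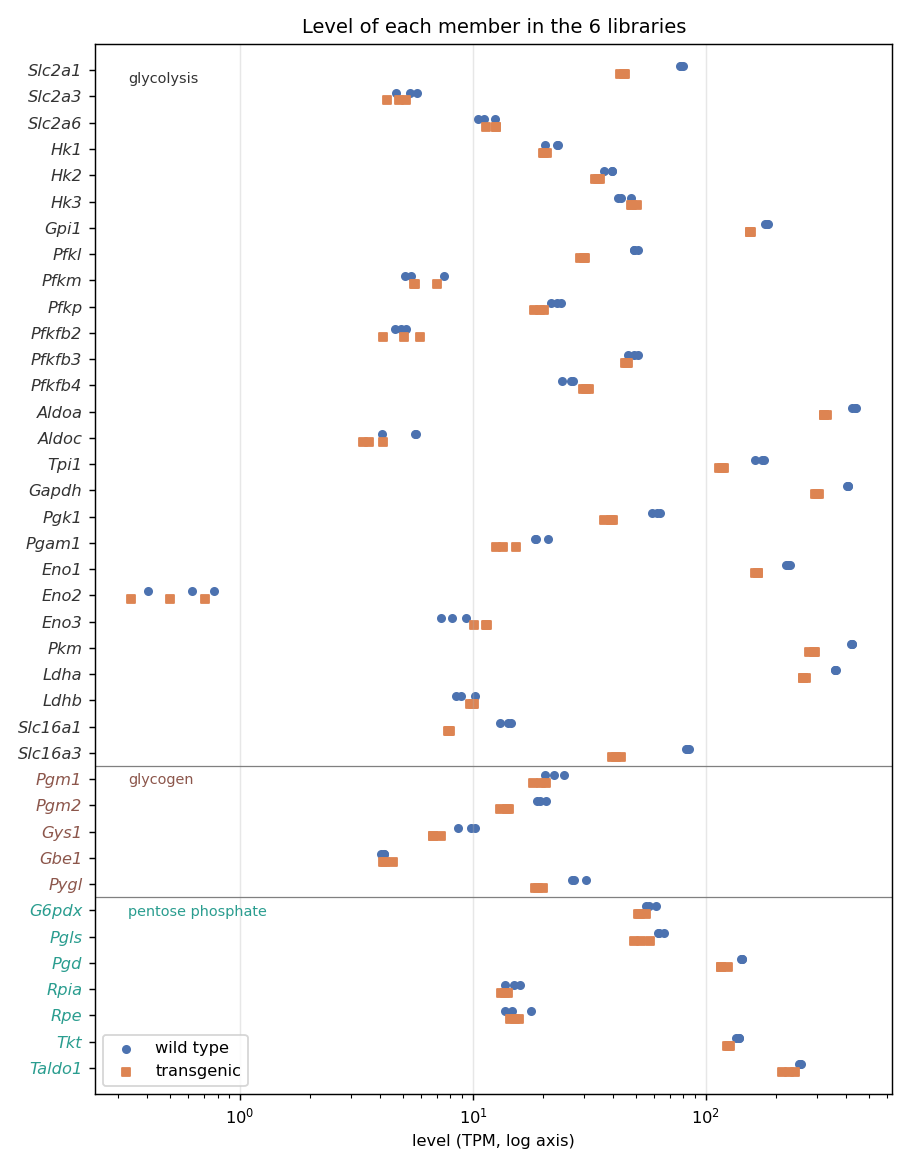
Level of each of the 39 members in every library, as TPM on a log axis, in pathway order; circles are the 3 wild type and squares the 3 transgenic libraries. The most abundant enzymes, such as Aldoa and Pkm, lie at 277 to 442 TPM and are separated between the groups, while Slc2a3, Pfkm and Rpe overlap.

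The 250 bases before the transcription start are shown for 4 genes that fell and hold ACGTG, and for Pfkl, which fell without it there. ACGTG is a core form of the hypoxia response element, the DNA site of HIF-1. Only this form was searched for, and the form GCGTG, which the Pfkl sequence does hold, was not counted. Sequences are from RefSeq, build GRCm38.p6, on the gene's strand from 5′ to 3′, and capitals mark ACGTG or its reverse complement.
Slc16a3, chr11:120948817-120949066, plus strand: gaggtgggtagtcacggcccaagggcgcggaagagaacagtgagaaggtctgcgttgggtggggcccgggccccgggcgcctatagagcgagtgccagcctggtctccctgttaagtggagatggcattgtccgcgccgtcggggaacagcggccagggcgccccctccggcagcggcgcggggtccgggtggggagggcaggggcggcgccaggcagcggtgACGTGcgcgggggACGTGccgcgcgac
Slc2a1, chr4:119108495-119108744, plus strand: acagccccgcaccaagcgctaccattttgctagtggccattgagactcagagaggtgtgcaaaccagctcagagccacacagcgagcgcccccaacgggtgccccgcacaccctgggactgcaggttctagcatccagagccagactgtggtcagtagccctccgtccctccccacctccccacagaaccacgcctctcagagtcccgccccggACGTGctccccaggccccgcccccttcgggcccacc
Pgk1, chrX:106186850-106187099, plus strand: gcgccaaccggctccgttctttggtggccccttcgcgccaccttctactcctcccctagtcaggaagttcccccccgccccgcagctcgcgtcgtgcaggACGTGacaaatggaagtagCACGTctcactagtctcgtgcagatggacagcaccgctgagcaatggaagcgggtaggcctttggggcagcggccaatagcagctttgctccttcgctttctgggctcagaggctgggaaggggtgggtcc
Ldha, chr7:46845554-46845803, plus strand: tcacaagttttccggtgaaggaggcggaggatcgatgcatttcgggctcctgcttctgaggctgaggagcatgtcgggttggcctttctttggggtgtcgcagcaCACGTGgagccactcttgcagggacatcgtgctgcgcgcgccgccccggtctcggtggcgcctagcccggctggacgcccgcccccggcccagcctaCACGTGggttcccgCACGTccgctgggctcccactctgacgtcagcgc
Pfkl, chr10:78009808-78010057, minus strand: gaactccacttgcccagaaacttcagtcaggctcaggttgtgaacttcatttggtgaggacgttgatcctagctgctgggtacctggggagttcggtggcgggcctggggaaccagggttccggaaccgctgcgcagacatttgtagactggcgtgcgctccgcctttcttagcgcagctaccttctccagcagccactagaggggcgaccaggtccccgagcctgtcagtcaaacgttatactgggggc

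Over windows from 250 bases before to 50 bases after the start, 38 of 39 members and 9797 tested genes had a RefSeq sequence. ACGTG, on either strand, was present in 18 of the 38 member windows (47.4%) and in 26.1% of the windows of tested genes. Among members that fell it was present in 11 of 22, and among tested members that did not fall in 7 of 15. The median log2 fold change was -0.43 over the 18 tested members with these letters and -0.16 over the 19 without. These letters were thus about as frequent in the members that fell as in those that did not, a difference that was not tested. The Ldha window held 5 matches, of which 4 come from 2 copies of the palindrome CACGTG (the E-box), each read on both strands. In the Pgk1 and Slc16a3 windows there were 2 matches each. CACGTG was present in 2 of 38 member windows, those of Ldha and Slc16a1, and in 10.3% of tested genes. TTATGTAA and TTACGTAA, the D-box letters that E4BP4 is known to bind, were in 0 of 38 member windows and in 0.459% and 0.133% of tested genes. TGACGTCA, the cyclic AMP response element, was in 1 member window, that of Ldha, and in 3.19% of tested genes. It shares no base with the ACGTG matches there. The window used for Hk3 lies 566 bases from the start of its deposited transcript, that for Pkm 208 and that for Tpi1 138.

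**Figure D2:**
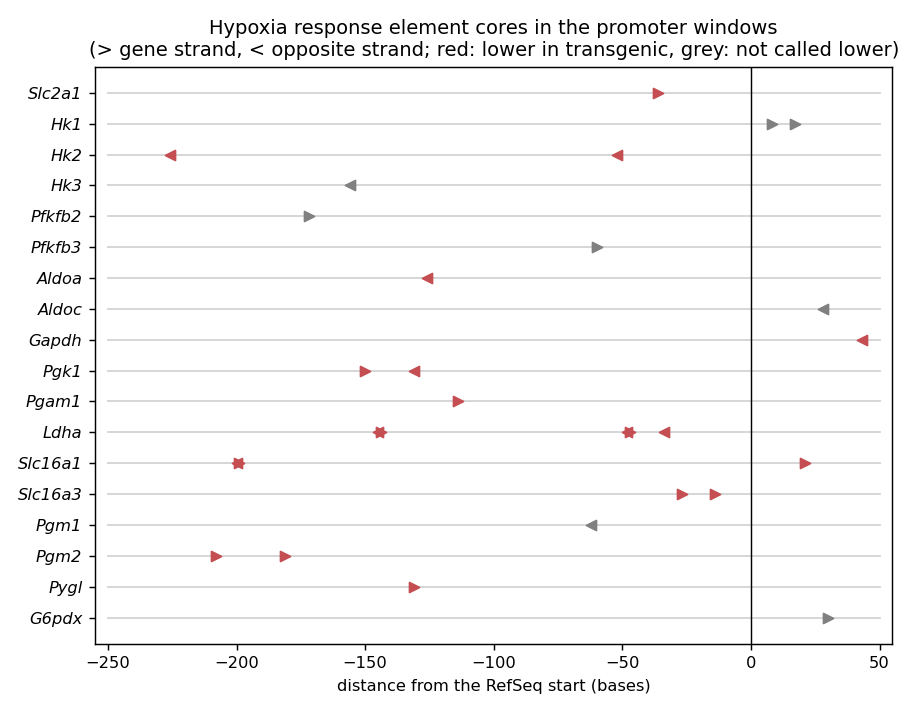
Position of each ACGTG match in the promoter windows of the 18 members that hold one, in bases from the RefSeq start; arrowheads give the strand, red genes fell in transgenic libraries and grey genes did not. Ldha holds 5 matches, and the matches of Slc16a3 lie 27 and 14 bases before the start.

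The transporters at both ends of the pathway showed the largest falls. Slc2a1 encodes GLUT1, the main glucose carrier of activated macrophages. It was at 80.1, 78.4 and 77.3 TPM in wild type against 44.9, 42.7 and 44.6 TPM in transgenic libraries, with no overlap (log2 fold change -0.82 ± 0.034 SE, limma adjusted p = 3.91e-06). Slc16a3 encodes MCT4, which exports lactate from glycolytic cells. It was at 82.0, 84.7 and 83.2 TPM in wild type against 39.4, 43.3 and 41.2 TPM in transgenic libraries, 2.02-fold lower and the largest fall of the 39 genes (log2 fold change -1 ± 0.040 SE, limma adjusted p = 3.64e-06). Slc16a1, for the related carrier MCT1, was at 13.1, 14.5 and 14.1 TPM against 7.85, 7.98 and 7.81 TPM (log2 fold change -0.75 ± 0.062 SE, limma adjusted p = 0.000132). The highest transgenic library thus lay well below the lowest wild type library for all 3 of these carriers. The other glucose carriers were not called. Slc2a3, for the high-affinity carrier GLUT3, was at 5.25 and 4.75 TPM (95% interval of the log2 fold change -0.36 to 0.11). Slc2a6, for the lysosomal carrier GLUT6, was at 11.4 and 12.2 TPM (-0.09 to 0.27). The share of Slc2a1 in the summed TPM of the 3 glucose carriers was 82.5% in wild type against 72.3% in transgenic libraries.

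Hexokinases, which trap glucose in the cell as glucose 6-phosphate, had a nearly equal summed level in both groups, 105 and 104 TPM. Hk2, the inducible isozyme, fell slightly, from 39.4, 36.5 and 39.4 TPM to 34.5, 35.2 and 33.5 TPM (log2 fold change -0.15 ± 0.045 SE, limma adjusted p = 0.0431). Its call was lost when any 1 library other than wild type replicate 2 was left out (limma adjusted p = 0.0751 to 0.129), with no filter (0.0569), with upper-quartile (0.1) or median-ratio scaling (0.0618), in limma without a trend (0.0874) and with the replicate block (0.0848), so that it was kept in 4 of 14 alternatives. The ubiquitous isozyme gene Hk1 was at 22.2 and 20.2 TPM (limma adjusted p = 0.187). Hk3, the isozyme of myeloid cells, was at 47.5, 41.9 and 43.0 TPM in wild type against 48.2, 50.8 and 47.9 TPM in transgenic libraries (log2 fold change 0.15 ± 0.053 SE, limma adjusted p = 0.0864). It was called higher in limma-voom on recovered reads (limma adjusted p = 0.00559), with upper-quartile scaling (0.0426) and without wild type replicate 1 (0.0225). Gpi1, which converts glucose 6-phosphate to fructose 6-phosphate, fell from 182, 180 and 184 TPM to 155, 155 and 157 TPM (log2 fold change -0.23 ± 0.021 SE, limma adjusted p = 0.000257).

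At the phosphofructokinase 1 step, which commits the sugar to glycolysis, the liver-type gene Pfkl was the most abundant of the 3 isozymes. It was at 49.0, 51.1 and 49.0 TPM in wild type against 29.9, 30.1 and 28.8 TPM in transgenic libraries, 1.68-fold lower (log2 fold change -0.73 ± 0.038 SE, limma adjusted p = 1.44e-05). The platelet-type gene Pfkp fell less, from 22.8 to 19.3 TPM (log2 fold change -0.23 ± 0.058 SE, limma adjusted p = 0.0264). It was no longer called when wild type replicate 2 (limma adjusted p = 0.0689), wild type replicate 3 (0.0813), transgenic replicate 1 (0.0806) or transgenic replicate 2 (0.0719) was left out, or in limma without a trend (0.0504). The muscle-type gene Pfkm was at 6.01 and 6.08 TPM (limma adjusted p = 0.924). The share of Pfkl in the summed phosphofructokinase 1 level was 63.3% in wild type against 53.9% in transgenic libraries.

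The bifunctional PFKFB enzymes set the level of fructose 2,6-bisphosphate, the strongest known activator of phosphofructokinase 1. Their summed level was 79.5 TPM in wild type against 81.2 TPM in transgenic libraries, with the highest wild type library at 80.12 and the lowest transgenic library at 80.19 TPM. Pfkfb4 rose, from 26.2, 27.0 and 24.2 TPM to 30.5, 29.8 and 31.3 TPM (log2 fold change 0.24 ± 0.051 SE, limma adjusted p = 0.0145, or 0.0568 without transgenic replicate 3). Pfkfb3, whose product strongly favours synthesis of the activator, was at 48.8 and 45.6 TPM (limma adjusted p = 0.171). Pfkfb2 was at 4.90 and 5.04 TPM (limma adjusted p = 0.915).

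**Figure D3:**
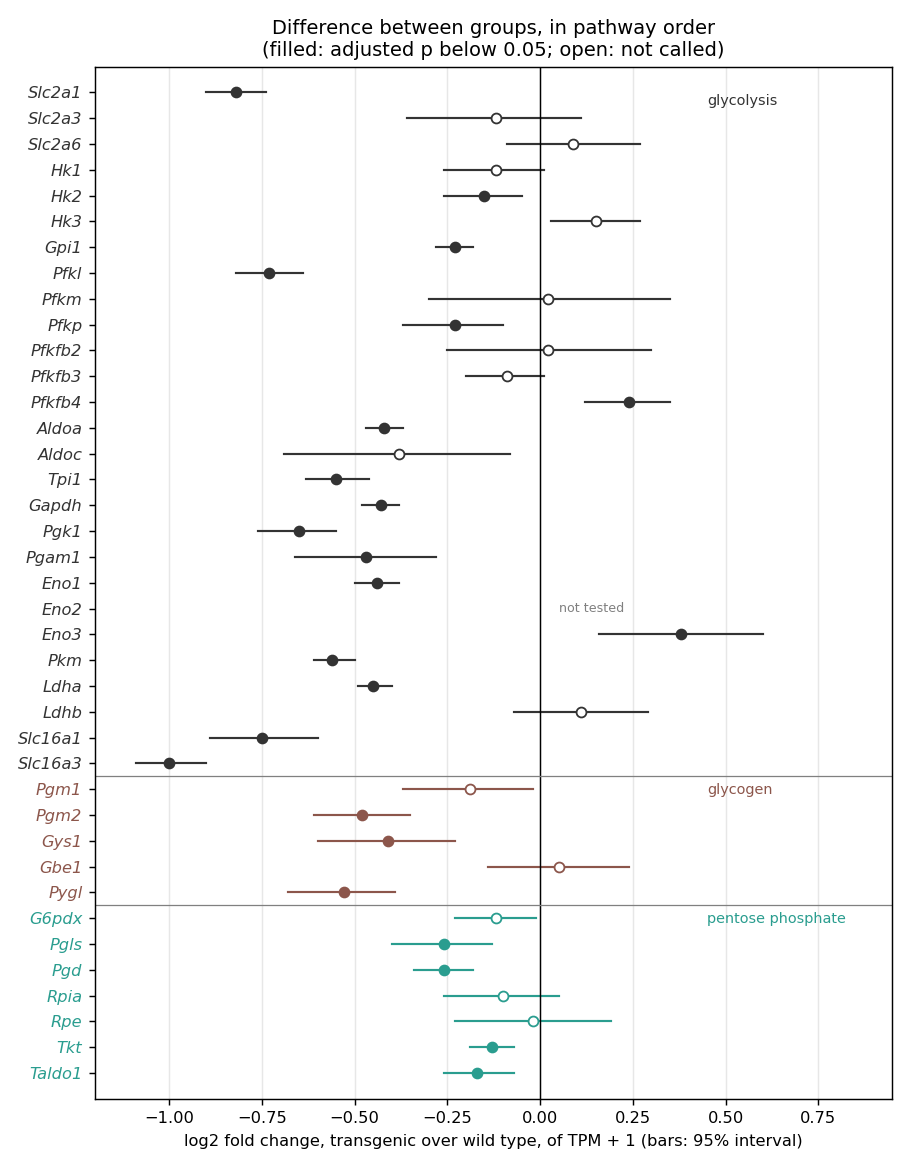
Log2 fold change of TPM + 1 (transgenic over wild type) of each member in pathway order, with its 95% interval; filled points have a limma adjusted p below 0.05 and open points do not. Filled points lie left of 0 at nearly all steps of glycolysis, with Pfkfb4 and Eno3 to the right.

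From aldolase to lactate dehydrogenase the main isozyme fell at each step. Aldoa, which splits fructose 1,6-bisphosphate, was at 442, 424 and 435 TPM in wild type against 320, 320 and 330 TPM in transgenic libraries (log2 fold change -0.42 ± 0.022 SE, limma adjusted p = 1.44e-05). Tpi1, which interconverts the 2 triose phosphates, was at 175, 177 and 163 TPM against 119, 117 and 114 TPM (log2 fold change -0.55 ± 0.037 SE, limma adjusted p = 4.88e-05). Both were separated between the groups by more than the spread within either. Gapdh, which makes NADH and is often used as a reference gene, was at 408, 402 and 406 TPM against 301, 295 and 306 TPM (log2 fold change -0.43 ± 0.020 SE, limma adjusted p = 7.34e-06). Pgk1, which yields the first ATP of the pathway, was at 58.9, 63.3 and 61.5 TPM against 36.6, 39.9 and 39.2 TPM, 1.59-fold lower (log2 fold change -0.65 ± 0.046 SE, limma adjusted p = 5.87e-05). Pgam1, the mutase that follows, fell from 19.4 ± 1.33 to 13.8 ± 1.41 TPM (SD, n = 3 each). Gapdh and Pgk1 thus fell together, and with the libraries of each group close to one another.

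Eno1, the common enolase, fell from 220, 230 and 225 TPM to 167, 168 and 162 TPM (log2 fold change -0.44 ± 0.026 SE, limma adjusted p = 2.34e-05). Pkm, pyruvate kinase of macrophages, was at 420, 423 and 423 TPM in wild type against 277, 291 and 293 TPM in transgenic libraries (log2 fold change -0.56 ± 0.024 SE, limma adjusted p = 5.29e-06). The row does not separate its splice forms M1 and M2. Ldha, which reduces pyruvate to lactate, was at 361, 360 and 357 TPM against 260, 262 and 268 TPM (log2 fold change -0.45 ± 0.019 SE, limma adjusted p = 4.71e-06). Each of these 3 genes was lower in every transgenic library than in any wild type library. Several of these abundant enzymes have processed pseudogenes in the mouse genome, and how the authors assigned reads to such copies is not given in the sources used here.

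Of the minor isozymes at these steps 1 rose and none fell. Eno3, the muscle enolase, rose from 7.32, 8.10 and 9.30 TPM to 10.1, 11.5 and 11.4 TPM (log2 fold change 0.38 ± 0.094 SE, limma adjusted p = 0.0243). Leaving out wild type replicate 1 (limma adjusted p = 0.0651), wild type replicate 2 (0.0671), transgenic replicate 2 (0.0841) or transgenic replicate 3 (0.0818) ended the call, as did testing with no filter (0.0522). Ldhb, whose product favours the reverse reaction, was at 9.18 and 9.95 TPM (95% interval of the log2 fold change -0.07 to 0.29). Aldoc, the brain aldolase, was at 5.13 ± 0.924 and 3.67 ± 0.379 TPM (SD, n = 3 each), a log2 fold change of -0.38 that was not called (limma adjusted p = 0.0744). It was called without wild type replicate 3 and in limma-voom (limma adjusted p = 0.0191 in both).

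Ratios between members were compared library by library for 15 pairs, and for 9 pairs the groups did not overlap. Among all tested genes taken singly 39.3% did not overlap, and no such share was computed for pairs of other genes. Most of the 9 pairs hold a member that fell, so their count in part repeats the single-gene results. Each of these 9 had an exact two-sided permutation p of 0.1, the smallest that 3 against 3 libraries allow, and 0.167 after adjustment over the 15 pairs, so none could pass. The Slc2a6/Slc2a1 ratio was 0.139, 0.134 and 0.161 in wild type against 0.253, 0.295 and 0.281 in transgenic libraries. The Eno3/Eno1 ratio was 0.0332, 0.0353 and 0.0413 against 0.0602, 0.0685 and 0.0705. The Ldha/Ldhb ratio was 40.6, 35.2 and 42.3 against 26.0, 25.8 and 27.6. In these pairs the more abundant gene thus had less of an excess in all transgenic libraries. The Pfkp/Pfkl ratio was 0.441, 0.447 and 0.489 against 0.612, 0.642 and 0.703. The Pfkfb4/Pfkfb3 ratio was 0.536, 0.584 and 0.472 against 0.668, 0.643 and 0.699. The Hk2/Hk1 ratio, at 1.71, 1.59 and 1.94 against 1.72, 1.70 and 1.68, overlapped, as did those of Aldoc/Aldoa, Eno2/Eno1, Gys1/Pygl, G6pdx/Hk2 and Tkt/Taldo1.

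**Figure D4:**
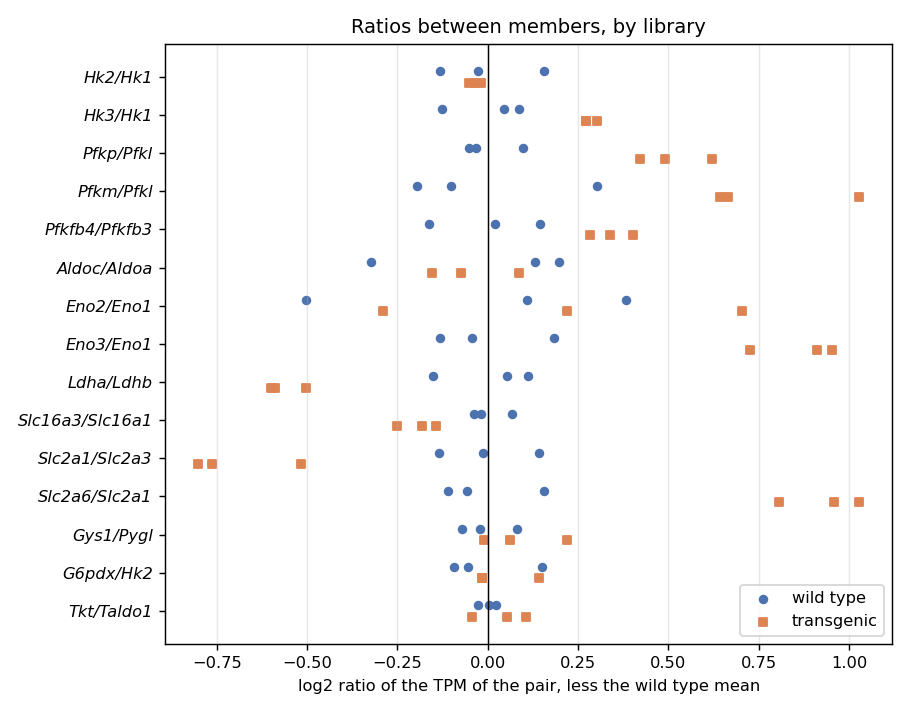
Log2 ratio of the TPM of 15 pairs of members in each library, less the mean of the wild type libraries; circles are wild type and squares transgenic. Slc2a6/Slc2a1 and Eno3/Eno1 shifted by 0.93 and 0.86 on the log2 scale, while Hk2/Hk1 and Tkt/Taldo1 lay around 0.

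In the glycogen group the synthase gene Gys1 and the phosphorylase gene Pygl fell. Pygb, a further phosphorylase gene that is not a member, was at 27.5 TPM in wild type, near Pygl, and rose to 30.9 TPM. Pygl, which releases glucose 1-phosphate from glycogen, was at 27.3, 30.7 and 26.7 TPM in wild type against 20.0, 18.5 and 19.0 TPM in transgenic libraries (log2 fold change -0.53 ± 0.063 SE, limma adjusted p = 0.000813). Gys1, which extends the chain, was at 9.79, 10.2 and 8.64 TPM against 6.74, 7.28 and 6.74 TPM (log2 fold change -0.41 ± 0.080 SE, limma adjusted p = 0.00861). Gbe1, which adds branches, was at 4.10 and 4.28 TPM (95% interval of the log2 fold change -0.14 to 0.24). Phosphoglucomutases join glycogen to glycolysis. The deposited symbols of this pair differ from those of RefSeq: the row called Pgm2 (NM_028132, chromosome 4) is Pgm1 in RefSeq, and the row called Pgm1 (NM_025700, chromosome 5) is Pgm2 there. The row called Pgm2 fell from 19.6 ± 0.901 to 13.8 ± 0.618 TPM (SD, n = 3 each), a 1.42-fold difference without overlap (log2 fold change -0.48 ± 0.058 SE, limma adjusted p = 0.000937). The row called Pgm1 was at 22.4 and 19.4 TPM (limma adjusted p = 0.113, or 0.04 in limma-voom), and its libraries overlapped.

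The pentose phosphate enzymes differed by less. In the oxidative branch, which yields NADPH, G6pdx at its entry was at 55.3, 60.7 and 56.8 TPM in wild type against 51.1, 52.0 and 55.3 TPM in transgenic libraries, not called (95% interval of the log2 fold change -0.23 to -0.01, limma adjusted p = 0.104, or 0.0442 in limma-voom). Pgls, the lactonase, fell from 65.9, 62.5 and 62.7 TPM to 57.4, 48.9 and 52.8 TPM (log2 fold change -0.26 ± 0.057 SE, limma adjusted p = 0.0143). Pgd, the second dehydrogenase, fell from 142, 143 and 143 TPM to 116, 125 and 116 TPM (log2 fold change -0.26 ± 0.032 SE, limma adjusted p = 0.00111). Pgls and Pgd thus did not overlap between the groups, whereas for G6pdx the highest transgenic library lay just above the lowest wild type library.

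In the non-oxidative branch, which exchanges sugars with glycolysis, Tkt fell from 138, 134 and 139 TPM to 126, 127 and 123 TPM (log2 fold change -0.13 ± 0.026 SE, limma adjusted p = 0.0108, or 0.0836 in limma without a trend). Taldo1 fell from 252, 254 and 256 TPM to 240, 227 and 212 TPM (log2 fold change -0.17 ± 0.041 SE, limma adjusted p = 0.0252). That call was lost in 7 of 14 alternatives: in limma without a trend (limma adjusted p = 0.1), with upper-quartile scaling (0.0658), with no filter (0.0566), without any 1 wild type library (0.0579 to 0.0724) and without transgenic replicate 2 (0.0674). The isomerase gene Rpia was at 14.8 and 13.7 TPM and the epimerase gene Rpe at 15.4 and 15.1 TPM, with limma adjusted p of 0.305 and 0.910. The sign of Rpe flipped with upper-quartile scaling and without wild type replicate 1 or transgenic replicate 3.

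Of the 20 steps or branches into which the members fall, 17 had a lower summed TPM in every transgenic library than in any wild type library. Many of these steps hold a single member, so this count largely repeats that of the members. Among all tested genes 39.3% did not overlap, in either direction. Hexokinase and glycogen branching overlapped between the groups, and the PFKFB sum was higher in the transgenic libraries by a narrow margin without overlap. The summed ratio of wild type over transgenic was highest for monocarboxylate transport, at 1.98, then 1.59 for phosphoglycerate kinase and 1.56 for glucose transport. It was 1.17 for phosphoglucose isomerase and for the oxidative branch, and 1.11 for the non-oxidative branch.

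**Figure D5:**
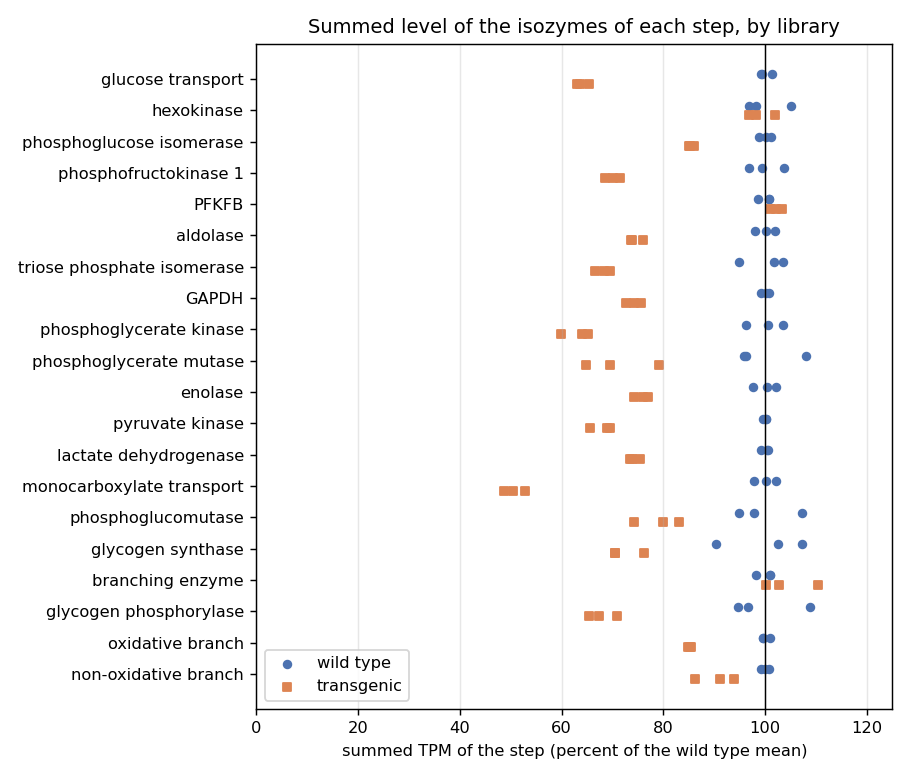
Summed TPM of the members of each step in every library, as percent of the wild type mean of that step; circles are wild type and squares transgenic libraries. Glycogen phosphorylase here is Pygl alone, without Pygb. Monocarboxylate transport lies near 50% in the transgenic libraries (49.2 against 97.2 TPM), while hexokinase and the PFKFB enzymes lie around 100%.

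The authors' deposited table, which was counted and tested separately by them on these libraries, lists all 39 members. It called 28 lower and 2 higher, beside 13.2% and 11.2% of its rows with a fold change. The 22 members that fell here were all among those 28. The authors' deposited table also called Hk1, Pfkfb3, Aldoc, Pgm1, G6pdx and Rpia lower. Its 2 higher members were Hk3 (log2 fold change 0.15, adjusted p = 0.00126 in the authors' deposited table) and Pfkfb4. For Eno3 the authors' deposited table gives an adjusted p of 0.119. Both tables rest on the same libraries.

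Other genes of these pathways gave fewer calls. Of 16 tested further glycolysis genes 5 fell and 2 rose (median log2 fold change -0.08). Bsg and Emb, which carry lactate transporters to the membrane, fell from 225 to 192 TPM and from 89.0 to 71.7 TPM (limma adjusted p = 0.00117 and 0.000887). Pgp, a phosphatase that clears glycolytic side products, fell by 0.47 on the log2 scale, and the ADP-dependent glucokinase gene Adpgk by 0.22. Hkdc1, a hexokinase relative of low level, fell by 0.71 on that scale, from 1.23 to 0.366 TPM, a 3.36-fold difference in TPM. Bpgm, which makes 2,3-bisphosphoglycerate, rose from 7.71 to 9.76 TPM (limma adjusted p = 0.021) and the urate carrier gene Slc2a9 from 2.46 to 3.59 TPM (0.0239). Tigar, which lowers fructose 2,6-bisphosphate, was at 2.92 and 2.79 TPM (limma adjusted p = 0.910), and its sign flipped without wild type replicate 1 or transgenic replicate 3. Of 18 tested genes of pyruvate entry and gluconeogenesis 2 fell and 0 rose (median -0.02). Pdk1, which inhibits pyruvate dehydrogenase, fell from 9.92, 10.3 and 9.52 TPM to 6.71, 6.24 and 6.33 TPM (limma adjusted p = 0.000915), and Fbp2, a fructose 1,6-bisphosphatase, from 6.20 to 4.04 TPM (0.037). Mpc1, Pdk3, Pcx and Gpd2 were not called, and Fbp1 was at 0.0913 and 0.0697 TPM, below the filter.

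Of 17 tested further glycogen genes 4 rose and 2 fell (median log2 fold change 0.01). Ugp2, which makes the UDP-glucose used by glycogen synthase, dropped to 23.5 ± 0.247 TPM from 31.3 ± 0.437 TPM (SD, n = 3 in each group), and Ppp1r3b, which targets a phosphatase to glycogen, fell from 10.5 to 8.04 TPM. Those that rose were Pygb, the brain phosphorylase (27.5 and 30.9 TPM), the phosphorylase kinase subunit genes Phka1 (1.75 and 2.81 TPM) and Phka2 (11.2 and 13.9 TPM), and Stbd1, a glycogen-binding protein (3.93 and 6.27 TPM). The brain phosphorylase gene thus moved opposite to Pygl. Of 9 tested further pentose phosphate genes 1 rose, the sedoheptulose kinase gene Shpk, from 1.34 to 2.17 TPM, and 1 fell, Prpsap1, which binds ribose phosphate pyrophosphokinase, from 35.3 to 30.5 TPM. Prps1, Prpsap2 and Idnk were not called, nor was Prps2 (12.3 and 14.2 TPM), except with upper-quartile scaling (limma adjusted p = 0.0417), in limma-voom (0.0236) and without transgenic replicate 1 (0.0369). Prpsap2 was called without wild type replicate 2 (0.0484).

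Several of these calls were lost with 1 library fewer, while the log2 fold changes kept their direction, at 0.15 to 0.17 for Pygb, 0.34 to 0.44 for Slc2a9, 0.41 to 0.51 for Phka1 and -0.25 to -0.18 for Prpsap1. Without transgenic replicate 3 the calls of Adpgk (limma adjusted p = 0.0531), Ppp1r3b (0.0511), Bpgm (0.078), Stbd1 (0.0533), Phka1 (0.0558), Phka2 (0.0759), Pygb (0.0704), Prpsap1 (0.093), Shpk (0.0957), Fbp2 (0.0967) and Slc2a9 (0.0613) were lost. Without transgenic replicate 2 those of Stbd1 (limma adjusted p = 0.0562), Phka1 (0.08), Shpk (0.141) and Slc2a9 (0.0698) were lost, and without transgenic replicate 1 those of Bpgm (0.0673), Phka2 (0.0687), Pygb (0.0691), Prpsap1 (0.0845), Shpk (0.0944), Fbp2 (0.106) and Slc2a9 (0.0746). Without wild type replicate 1 those of Bpgm (limma adjusted p = 0.0619), Phka2 (0.0559) and Prpsap1 (0.0795) were lost, without replicate 2 those of Fbp2 (0.11), Pygb (0.0656), Prpsap1 (0.0849), Shpk (0.115) and Slc2a9 (0.0662), and without replicate 3 those of Fbp2 (0.101), Phka1 (0.0612) and Shpk (0.118). With the replicate block Shpk (limma adjusted p = 0.0902) and Slc2a9 (0.055) were not called, nor was Bpgm in limma-voom (0.0798) or Prpsap1 with upper-quartile scaling (0.054). With no filter Shpk (limma adjusted p = 0.0661), Slc2a9 (0.0524) and Fbp2 (0.0824) were not called, nor were Fbp2 (0.0632) and Prpsap1 (0.0637) in limma without a trend. The calls of Bsg, Emb, Pgp, Hkdc1, Pdk1 and Ugp2 were kept in all of these.

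Of 15 tested regulators of these genes 6 fell and 2 rose (median log2 fold change 0). Hif1a, the oxygen-sensitive subunit of HIF-1, was at 67.8 ± 0.874 TPM in wild type against 59.3 ± 0.913 TPM in transgenic libraries (SD, n = 3 each). Epas1, its relative HIF-2 alpha, was at 6.70 ± 0.504 against 3.46 ± 0.255 TPM. Egln3, a HIF prolyl hydroxylase that is itself a known HIF target, was at 9.11, 8.90 and 9.11 TPM in wild type against 2.88, 2.65 and 1.49 TPM in transgenic libraries, 3.86-fold lower. Txnip, which restrains glucose uptake and is induced by glucose through MLXIP and MLXIPL, rose from 155, 154 and 160 TPM to 248, 244 and 241 TPM (log2 fold change 0.65 ± 0.024 SE, limma adjusted p = 2.31e-06). Mlxip itself rose from 24.4 to 28.1 TPM. Trp53 fell by 0.21, Nfe2l2 by 0.10 and Egln1 by 0.36 on the log2 scale. The call of Nfe2l2 was lost in limma without a trend (limma adjusted p = 0.121). That of Egln1 was lost there too (limma adjusted p = 0.0517), and when wild type replicate 1 (0.0676), wild type replicate 2 (0.0682), transgenic replicate 1 (0.0533) or transgenic replicate 2 (0.0512) was left out. Slc2a9, Mlxip and Egln1 were named after their values were seen.

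Markers of other cells moved in the same libraries. Of 10 tested neutrophil markers 7 fell and 0 rose, with a summed level over 14 genes of 1030 to 1060 TPM in wild type against 434 to 489 TPM in transgenic libraries. S100a8 was at 409 and 154 TPM, and Ly6g, which defines neutrophils, at 3.48 and 2.24 TPM. Of 12 epithelial markers 8 fell, with sums of 1070 to 1080 and 600 to 607 TPM, and Epcam was at 42.1 and 36.6 TPM. Markers of fibroblasts and smooth muscle fell in 5 of 10 cases (sums of 165 to 167 and 120 to 124 TPM), and of 7 tested endothelial markers 6 fell (53.6 to 58.4 and 33.8 to 38.6 TPM). No marker rose in these 4 lists. Col1a1 was at 28.1 and 20.8 TPM and Pecam1 at 27.9 and 24.6 TPM. Of 10 tested T and NK cell markers 6 rose (sums of 114 to 125 and 134 to 142 TPM), with Cd3e at 6.30 and 7.02 TPM. Of 6 B and plasma cell markers 1 rose (217 to 229 and 252 to 271 TPM), of 5 tested eosinophil and mast cell markers 1 rose (10.6 to 12.9 and 19.2 to 20.5 TPM, with Epx at 0), and of 4 tested erythrocyte markers 4 rose (19.6 to 29.9 and 47.9 to 55.3 TPM). Their part in the members' values was likewise not tested.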

How the data were processed

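Sorted colon macrophages were measured by RNA-seq, with 3 wild type and 3 transgenic libraries grouped by title. Per the submitters' processing notes, reads were processed with bcl2fastq, STAR, HOMER 4.11.1 and DESeq2 on mm10, and settings were not found in those notes. The labels do not describe a kit that keeps strand, so reads of overlapping antisense genes cannot be told apart (Tpi1 overlaps Spsb2 by 24 bases and Pfkp overlaps Pitrm1 by 162). The authors' TPM table gives 1 RefSeq transcript per gene, per the file headers. A second table that the authors deposited holds regularized log2 values, log2 fold changes and p-values; its signs were checked to mean transgenic over wild type.

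Here limma-trend (limma 3.58.1, R 4.3.3) was fitted to log2(TPM + 1) over genes whose group mean reached 1 TPM in either genotype, with genotype as the only term and Benjamini-Hochberg adjusted p below 0.05. The deposited TPM sum to 543612 to 545319 per library. The log scale understates changes of low genes. TPM times exon length gave whole reads for 99.94% to 99.98% of values of up to 1000 reads (tolerance 0.1 reads), which served for depth and for limma-voom. A count of 0 allows up to 3 reads, or 0.113 to 0.122 TPM for 2000 bases, for counting error only. The fit was tested on simulated data. The text names all 39 members, Nfil3, up to 6 genes with the lowest p of each further list, and Hif1a, Txnip, Tigar, Fbp1, Bsg, Pdk1 and Ugp2. The members and lists were chosen with earlier results of these data known. Alternatives changed the pseudocount, filter, scaling, trend, replicate block, reads and each library.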

Additional observations from a re-analysis of the deposited data

How the results depend on the processing

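Of the 22 members that fell, 18 fell under all 14 alternatives (Slc2a1, Gpi1, Pfkl, Aldoa, Tpi1, Gapdh, Pgk1, Pgam1, Eno1, Pkm, Ldha, Slc16a1, Slc16a3, Pgm2, Gys1, Pygl, Pgls and Pgd), while Hk2, Pfkp, Tkt and Taldo1 lost the call in at least 1. The number of members lower ranged from 18 (limma without a trend) to 25 (limma-voom on recovered reads), and from 19 to 21 with 1 library left out. The number higher, all in glycolysis, was 2, but 3 with upper-quartile scaling and with limma-voom, where Hk3 was called too, 1 with no filter, and 0 to 2 with 1 library left out (0 without transgenic replicate 3, 1 without wild type replicate 2 or transgenic replicate 2). Genes higher over the whole table numbered 704 to 883 with 1 library left out, 704 without transgenic replicate 2 and 721 without transgenic replicate 3, against 1100. Pentose phosphate members lower numbered 2 in limma without a trend. Further glycolysis genes higher numbered 1 with no filter, with a minimum of 5 TPM and with the replicate block, and 0 to 2 with 1 library left out. Pyruvate and gluconeogenesis genes lower numbered 1 with no filter and without a trend, and 1 to 2 with 1 library left out. Further glycogen genes numbered 0 to 3 higher and 1 to 2 lower with 1 library left out. Further pentose phosphate genes higher numbered 0 with no filter, with a minimum of 5 TPM and with the replicate block, 2 with upper-quartile scaling and with limma-voom, and 0 to 1 with 1 library left out. Those lower numbered 0 with upper-quartile scaling and without a trend, and 0 to 1 with 1 library left out. The replicate numbers do not pair the libraries (correlations of same-numbered deviations -0.013, -0.043 and 0.032), and 1 of the 3 wild type libraries correlated best with its own number. The replicate block gave 922 genes higher and 1457 lower, left 21 members lower and, beyond Hk2, Shpk and Slc2a9, changed no call of a named gene. Signs flipped with 1 library left out for Pfkm (-0.07 to 0.17), Pfkfb2 (-0.08 to 0.14), Rpe (-0.09 to 0.08, and 0.02 with upper-quartile scaling) and Tigar (-0.17 to 0.12). They also flipped for the log2 ratios Hk2/Hk1 (-0.10 to 0.05), Aldoc/Aldoa (-0.21 to 0.05), Eno2/Eno1 (-0.03 to 0.46) and G6pdx/Hk2 (-0.02 to 0.11). On the gene's strand alone, ACGTG was in 18.3% and TTATGTAA in 0.245% of tested genes. Hk2, Hk3, Aldoa, Aldoc, Gapdh and Pgm1 held ACGTG on the opposite strand only, so the share of members with it was lower too. The cause of these shifts was not tested. Of 1015 single-gene results under alternatives 917 kept direction and call. Eno2, with 55 and 48 reads per group, lay below the filter and was not tested, so a modest difference there may be missed. Some low genes were called where the difference was large, such as Hkdc1 (160 and 49 reads per group, 3.36-fold).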
